A study of Mus musculus with 9 samples.

Results

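The expression of 33 type I interferon stimulated genes was examined in 9 whole tumors of the NB9464 line, a murine neuroblastoma model driven by Mycn amplification. The genes were taken by symbol from the deposited RNA-seq table, as a list of well known interferon targets. All 33 were among its 54429 symbols, and all 33 were among the 15931 genes that passed the filter on low counts. In each mouse, a wild-type C57BL/6 animal whose age the labels do not give, the line was placed under the skin, and treatment started at a tumor volume of 250 mm3. The 3 groups, of 3 tumors each, received vehicle, R788 + anti-PDL1, or Rad + R788 + anti-PDL1. R788, also called fostamatinib, is converted in the body to an inhibitor of the kinase Syk (dose 50 mg/kg), anti-PDL1 is the checkpoint antibody clone 10F.9G2, and Rad was 10 Gy of radiation. The series lists 4 treatment doses between day 28 and day 37. Each agent on its own was not analysed here, so the single agents cannot be told apart within a combination. A tumor from 1 transplanted line holds both tumor cells and host cells, and in such bulk RNA fewer cells of a type and less RNA per cell cannot be told apart.

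Type I interferons are secreted proteins that signal through the receptor made of Ifnar1 and Ifnar2 and the kinases Jak1 and Tyk2. Stat2 is then phosphorylated and acts with Irf9 in a complex called ISGF3, which binds the interferon stimulated response element (ISRE) in the promoters of target genes. The products of these genes bind viral RNA, restrict viral replication and release, modify proteins with the ubiquitin-like protein Isg15, and feed back on the pathway. In tumors, this gene set is used as a readout of nucleic acid sensing and of interferon reaching tumor and immune cells, and irradiation is among the known triggers of such sensing.

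The promoters of several members show the element that ISGF3 binds. The search used RefSeq promoters of GRCm38.p6, in the 250 bases before each annotated start, on either strand, for the ISRE core, which is GAAA, then any 2 bases, then GAAA, with overlapping matches allowed. The promoter table held 24 of the 33 members, and 11 of these 24 (45.8%) had the core, against 3.46% of 27025 genes in the table. The core TTCNNNGAA, which STAT dimers bind, was present in 5 of the 24 (20.8%) and in 8.13% of all genes. The 13 members with a promoter and no ISRE core in this window were Cmpk2, Dtx3l, Eif2ak2, Herc6, Ifi35, Ifi44, Ifit2, Irf9, Isg20, Oasl1, Oasl2, Phf11d and Xaf1. The stretches of 6 of the 11 members with the core are printed here as examples. They are read 5′ to 3′ along the gene's own strand, with every ISRE core match in capitals. Oas1a and Oas1g hold the core in the same sequence beside their starts, and both printed stretches end at the base before the start.

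Isg15 (chr4:156200855-156200916, minus strand): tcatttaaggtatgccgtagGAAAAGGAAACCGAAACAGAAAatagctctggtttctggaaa
Ifit1 (chr19:34640765-34640833, plus strand): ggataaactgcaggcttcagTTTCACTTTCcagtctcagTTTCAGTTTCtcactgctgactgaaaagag
Oas1a (chr5:120907526-120907565, minus strand): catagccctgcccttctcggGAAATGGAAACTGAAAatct
Oas1g (chr5:120887614-120887651, minus strand): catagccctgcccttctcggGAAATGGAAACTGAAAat
Bst2 (chr8:71537567-71537622, minus strand): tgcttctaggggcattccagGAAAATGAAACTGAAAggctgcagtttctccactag
Rsad2 (chr12:26456543-26456592, minus strand): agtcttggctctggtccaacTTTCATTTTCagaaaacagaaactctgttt

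Expression is given as CPM, the count scaled to a common library size, after TMM scaling, a correction for library composition, and 3 values in a row stand for replicates 1, 2 and 3. Where 3 such sets follow one another, they stand for vehicle, R788 + anti-PDL1 and irradiated tumors in that order. Gene positions are in GRCm38. Libraries held 18276683 to 23397886 counts. Irradiated replicate 1, the shallowest library, stood apart. Its TMM factor was 0.743, against 0.975 to 1.12 in the other 8 libraries, and it had a count at 18263 genes, against 19732 to 22129. The limit for a gene with no read, set at 3 counts, was between 0.115 and 0.221 CPM by library, and it covers counting error only. Of the 33 members, 28 had at least 10 counts in all 9 libraries. The tumors labelled NB9464 had the neuroblast genes Mycn at 93.3 to 250.3 CPM and Hand2 at 325 to 867 CPM, but no count of Th or Elavl4 in any of the 9 libraries. The tissue label reads whole tumor while the extraction text of the labels names bone marrow derived macrophages; the whole tumor label was followed here.

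A single tumor stood out over the 33 genes. Irradiated replicate 3 was the highest of the 9 tumors for 25 of 33 members, although it was the highest for only 9.12% of all genes tested. Within the irradiated group it was the highest for 29 of 33 members (28.5% of all genes). Irradiated replicate 1 was the highest of that group for the other 4, which were Bst2, Ifi27, Isg20 and Ifi35 (40.2% of all genes). Of the 9 tumors, irradiated replicate 1 was the highest for 4 members, against 30.4% of all genes, and the lowest for 12, against 34.5%. The median ratio of irradiated replicate 3 to the vehicle mean was 1.93 over the members. It was over 3 times the next tumor for 4 members, Oas2, Oas3, Mx1 and Usp18, and over 2 times for 7. Centred on each gene's mean over the 9 tumors, the median log2(CPM + 0.5) of the members was 1.12 in that tumor, against -0.55 and -0.21 in irradiated replicates 1 and 2. These medians were -0.38, 0.38 and 0.27 in vehicle tumors and -0.46, -0.05 and -0.27 in R788 + anti-PDL1 tumors. The remaining 8 tumors also differed within groups, since vehicle replicate 1 was the lowest of its group for 27 of 33 members (40.6% of all genes) and R788 + anti-PDL1 replicate 2 the highest of its group for 20 (41.7%).

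**Figure D1:**
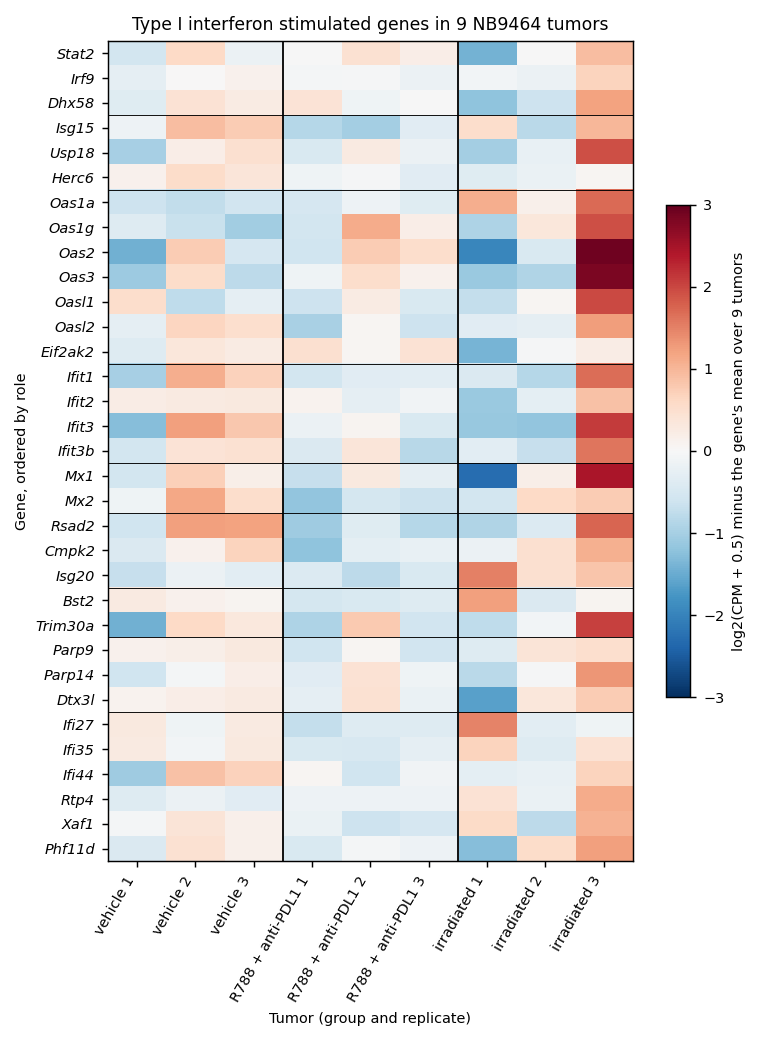
Level of the 33 genes (rows, ordered by role) in each of the 9 tumors (columns), as log2(CPM + 0.5) minus the mean of the gene over the 9 tumors. The column of irradiated replicate 3 is the highest of the 9 for 25 genes, and the column of vehicle replicate 1 is the lowest of the vehicle columns for 27.

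For the ISGF3 subunits and the sensor gene of the list, group means differed by less than the spread between irradiated tumors. Stat2 (chr10:128270559-128292849), the STAT that is specific to type I and III interferon signalling, was at 13.3, 30.4 and 17.4 CPM in vehicle, 19.5, 27.4 and 23.0 CPM in R788 + anti-PDL1 and 7.08, 19.6 and 38.0 CPM in irradiated tumors. Irf9 (chr14:55603571-55610030), the DNA-binding subunit, was at 13.3, 16.3 and 17.5 CPM, 15.4, 15.7 and 14.1 CPM and 15.0, 14.2 and 25.7 CPM in the same order. All 3 groups overlapped for both genes, and irradiated tumors held both the lowest and the highest Stat2 level of the 9. Dhx58, which encodes the RNA sensor LGP2, was at 3.42, 6.24 and 5.48 CPM in vehicle, 6.17, 4.13 and 4.51 CPM in R788 + anti-PDL1 and 1.70, 2.79 and 11.2 CPM in irradiated tumors, again with the lowest and highest tumor of the 9 in the irradiated group. An exon of Irf9 shares 123 bases with Rnf31 on the same strand, so reads there cannot be assigned to one gene from the counts alone.

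In the Isg15 system, the modifier was lower in R788 + anti-PDL1 tumors than in vehicle tumors, without overlap. Isg15 (chr4:156199424-156200818), a ubiquitin-like protein that is joined to other proteins, was at 3.92, 8.80 and 7.84 CPM in vehicle tumors. It was at 2.20, 1.91 and 3.36 CPM in R788 + anti-PDL1 tumors and at 6.56, 2.28 and 9.32 CPM in irradiated tumors. The highest R788 + anti-PDL1 tumor thus lay below the lowest vehicle tumor, while the irradiated tumors spanned both. Usp18, the protease that removes Isg15 and blocks the interferon receptor, was at 0.386, 1.53 and 1.97 CPM, 0.794, 1.64 and 1.07 CPM and 0.369, 1.01 and 6.30 CPM, with overlapping groups and irradiated replicate 3 alone above 2 CPM. Herc6 (chr6:57581000-57664632), the mouse ligase for Isg15, was at 26.6, 35.6 and 31.3 CPM in vehicle, 21.9, 23.4 and 19.0 CPM in R788 + anti-PDL1 and 18.6, 20.9 and 25.0 CPM in irradiated tumors. All 6 treated tumors were below all 3 vehicle tumors for Herc6. For this gene, 13.7% of the exon length is shared with the transcript Gm45193 on the same strand. Of all genes, 16.5% were lower without overlap in R788 + anti-PDL1 than in vehicle tumors, and 11.2% in irradiated than in vehicle tumors.

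Among the members that sense double-stranded RNA, only Oas1a set the irradiated group apart from all 6 other tumors. The Oas proteins make 2′-5′ linked oligoadenylates, a second messenger of the antiviral response. Oas1a (chr5:120896256-120907521) was at 3.70, 3.37 and 3.84 CPM in vehicle, 4.01, 5.31 and 4.47 CPM in R788 + anti-PDL1 and 13.1, 6.60 and 20.4 CPM in irradiated tumors. All 3 irradiated tumors were above all 6 others, and the R788 + anti-PDL1 tumors were also above the vehicle tumors. Its neighbour Oas1g (chr5:120876142-120887613) was at 0.552, 0.359 and 0.164 CPM, 0.441, 2.45 and 1.07 CPM and 0.221, 1.22 and 4.70 CPM, with overlapping groups and 3 counts in irradiated replicate 1. Transcripts of this pair are alike, with 68.8% of the 31-base words of Oas1a found in another gene's transcripts and nearly all of those in Oas1g, so the division of reads between them is uncertain. Their sum was 4.25, 3.73 and 4.00 CPM in vehicle, 4.45, 7.76 and 5.53 CPM in R788 + anti-PDL1 and 13.3, 7.81 and 25.1 CPM in irradiated tumors. The irradiated tumors stayed above all 6 others for the sum, though the closest pair, at 7.81 and 7.76 CPM, hardly differed. Of all genes, 9.27% were higher without overlap in irradiated than in vehicle tumors, and 14.2% than in R788 + anti-PDL1 tumors. The share that was higher than in both groups was not computed.

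The larger Oas genes depended on 1 tumor. Oas2 (chr5:120730333-120749853) was at 0.221, 2.83 and 0.877 CPM in vehicle, 0.794, 2.79 and 2.34 CPM in R788 + anti-PDL1 and 0, 0.913 and 14.2 CPM in irradiated tumors. Oas3 was at 0.386, 2.25 and 0.603 CPM, 1.23, 2.22 and 1.56 CPM and 0.369, 0.507 and 12.9 CPM. Irradiated replicate 3 was at 5.00 times the next tumor for Oas2 and 5.74 times for Oas3, while irradiated replicates 1 and 2 were below all 3 R788 + anti-PDL1 tumors for Oas3 and 0 counts of Oas2 were found in irradiated replicate 1, which allows up to 0.221 CPM there. Oasl1, an Oas-like protein without the synthase activity, was at 4.97, 1.75 and 2.69 CPM, 1.98, 4.05 and 2.30 CPM and 1.84, 3.50 and 14.5 CPM. Oasl2 was at 9.55, 18.2 and 16.7 CPM in vehicle, 5.60, 12.1 and 7.30 CPM in R788 + anti-PDL1 and 9.07, 9.44 and 28.4 CPM in irradiated tumors, so that its 2 other irradiated tumors were below the vehicle tumors. Eif2ak2 (chr17:78852564-78882573), the RNA-activated kinase PKR that halts translation, was at 35.0, 57.7 and 54.3 CPM in vehicle, 64.0, 47.8 and 61.4 CPM in R788 + anti-PDL1 and 17.1, 44.6 and 53.7 CPM in irradiated tumors, where irradiated replicate 1 was the lowest of the 9.

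**Figure D2:**
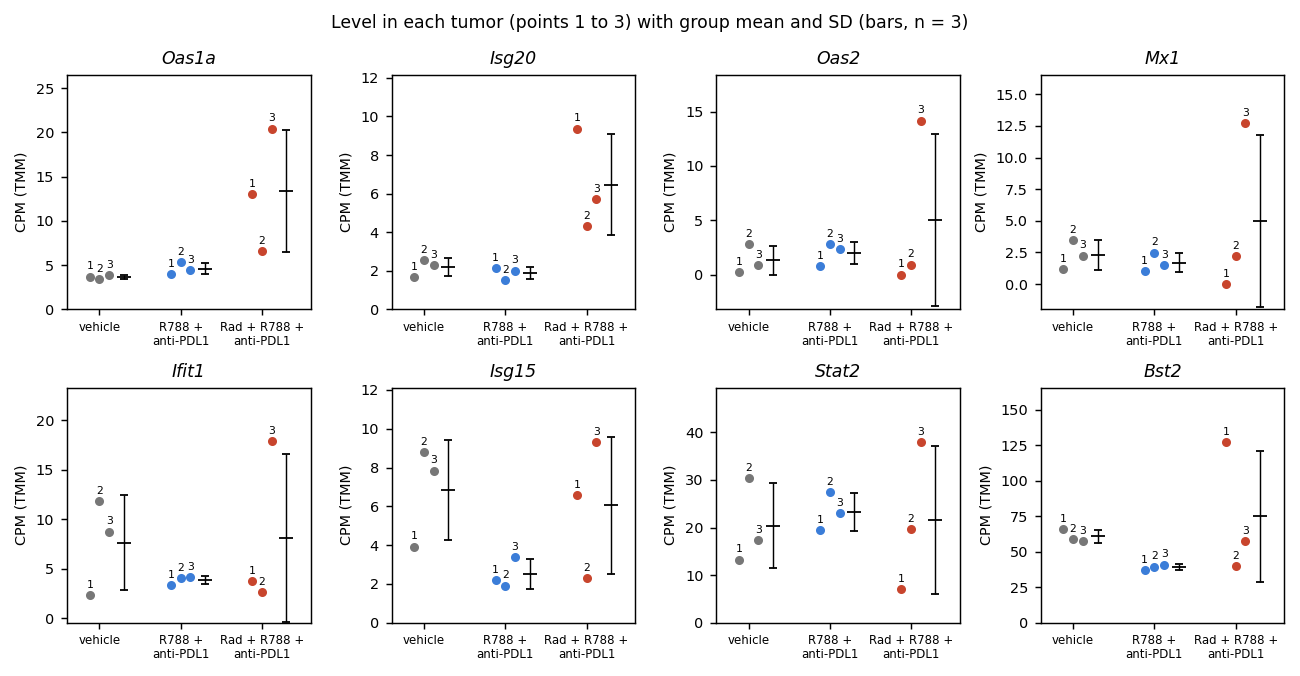
Level (CPM after TMM scaling, linear axes) of 8 members in each tumor, numbered by replicate, with the mean and SD of each group (n = 3). For Oas1a and Isg20 all 3 irradiated tumors are above the 6 others, for Oas2 and Mx1 irradiated replicate 3 alone is high, and for Isg15 and Bst2 the R788 + anti-PDL1 tumors are below the vehicle tumors.

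The products of the Ifit genes bind viral RNA ends and block its translation, and Ifit1, Ifit3 and Ifit3b spread widely within the vehicle group. Ifit1 (chr19:34640871-34650009) was at 2.37, 11.8 and 8.77 CPM in vehicle, 3.40, 4.05 and 4.14 CPM in R788 + anti-PDL1 and 3.76, 2.69 and 17.9 CPM in irradiated tumors. The vehicle tumors spanned both other tumors of the irradiated group and the whole R788 + anti-PDL1 group. Ifit2 was at 24.8, 25.6 and 26.4 CPM, 22.8, 17.7 and 19.8 CPM and 9.66, 17.4 and 39.6 CPM, with the 3 vehicle tumors close together and above all R788 + anti-PDL1 tumors. Ifit3 was at 1.82, 12.8 and 9.43 CPM and Ifit3b at 1.05, 2.51 and 2.63 CPM in vehicle tumors. In R788 + anti-PDL1 tumors Ifit3 was at 4.54, 5.47 and 3.65 CPM and Ifit3b at 1.19, 2.41 and 0.779 CPM. In irradiated tumors they were at 2.07, 1.98 and 23.9 CPM and 1.33, 0.913 and 6.44 CPM, high in replicate 3 alone. These near copies share 61.8% of the 31-base words of Ifit3, and the sum of both gave the same order, with 3.39, 2.89 and 30.3 CPM in irradiated tumors against 2.87, 15.3 and 12.1 CPM in vehicle tumors.

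The Mx genes encode dynamin-like GTPases that trap viral nucleocapsids. Mx1 (chr16:97447035-97462907) was at 1.16, 3.50 and 2.25 CPM in vehicle, 1.01, 2.48 and 1.52 CPM in R788 + anti-PDL1 and 0, 2.23 and 12.7 CPM in irradiated tumors, with 0 counts in irradiated replicate 1, which allows up to 0.221 CPM. Mx2 (chr16:97535308-97560900), which the annotation lists as a polymorphic pseudogene, was at 1.55, 4.49 and 2.74 CPM, 0.485, 1.07 and 0.943 CPM and 1.03, 2.89 and 3.33 CPM. Its 3 R788 + anti-PDL1 tumors were below the 3 vehicle tumors, and the irradiated tumors overlapped both groups. Common laboratory strains such as C57BL/6 are known to carry defective Mx genes, and the values are transcript levels only.

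Among members that act on nucleotides and nucleic acids, Isg20 was the other gene that separated the irradiated group. Isg20 (chr7:78913424-78920396), an exonuclease that degrades single-stranded RNA, was at 1.66, 2.56 and 2.30 CPM in vehicle, 2.12, 1.53 and 2.01 CPM in R788 + anti-PDL1 and 9.37, 4.31 and 5.71 CPM in irradiated tumors. All 3 irradiated tumors were above the other 6, with replicate 1 and not replicate 3 the highest. Irradiated replicate 1 was the highest of the 9 tumors for 30.4% of all genes. Irradiated tumors were above all vehicle tumors for 9.27% of all genes, and above all R788 + anti-PDL1 tumors for 14.2%. Rsad2, which encodes viperin, an enzyme that makes a chain-terminating nucleotide, was at 4.25, 16.6 and 16.1 CPM, 2.95, 5.12 and 3.52 CPM and 3.39, 4.92 and 23.7 CPM. Cmpk2, a nucleotide kinase gene beside Rsad2 on chromosome 12, was at 4.09, 6.20 and 9.37 CPM, 2.16, 4.51 and 4.75 CPM and 4.94, 8.17 and 12.4 CPM. Irradiated tumors were above all R788 + anti-PDL1 tumors for Cmpk2, by a small margin for replicate 1, and overlapped the vehicle tumors.

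Bst2, the membrane tether that holds budding virus particles, was the most abundant member per exon length. It was at 65.7, 59.0 and 57.5 CPM in vehicle, 37.2, 39.5 and 40.9 CPM in R788 + anti-PDL1 and 127, 39.7 and 57.5 CPM in irradiated tumors. The R788 + anti-PDL1 tumors were below all vehicle tumors. Irradiated replicate 1 was the highest of the 9 tumors, as it was for 30.4% of all genes, while irradiated replicate 3 was within the vehicle range. Trim30a, a TRIM protein that restrains NF-kB signalling, was at 3.09, 14.2 and 11.5 CPM, 4.59, 16.2 and 6.02 CPM and 5.24, 8.68 and 39.7 CPM, with overlapping groups.

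For the ADP-ribosylation genes Parp9, Parp14 and Dtx3l, irradiated tumors overlapped both other groups. Parp9 was at 29.0, 30.0 and 32.6 CPM in vehicle, 17.4, 27.5 and 17.6 CPM in R788 + anti-PDL1 and 20.1, 35.0 and 37.7 CPM in irradiated tumors, and Dtx3l, the ubiquitin ligase that pairs with it, was at 28.8, 30.5 and 32.3 CPM, 21.9, 37.1 and 23.2 CPM and 8.33, 33.7 and 45.3 CPM. These 2 genes are neighbours on opposite strands and share 458 exon bases, and reads there cannot be told apart without strand. Parp14 was at 11.9, 17.2 and 20.8 CPM, 14.1, 24.5 and 16.5 CPM and 10.2, 17.8 and 46.2 CPM, with irradiated replicate 3 above all other tumors.

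Of the 6 remaining members, Ifi27, which encodes a small membrane protein, and Ifi35 were led by irradiated replicate 1, the highest tumor for 30.4% of all genes. Ifi27 was at 25.3, 19.0 and 24.9 CPM, 12.3, 15.6 and 15.7 CPM and 59.3, 16.6 and 19.0 CPM in vehicle, R788 + anti-PDL1 and irradiated tumors, and Ifi35 at 12.5, 9.79 and 12.9 CPM, 7.41, 7.34 and 8.48 CPM and 16.8, 7.81 and 14.1 CPM. Both were lower in R788 + anti-PDL1 than in vehicle tumors without overlap. Rtp4, a chaperone of G protein coupled receptors, was at 5.25, 6.11 and 5.43 CPM, 6.22, 6.19 and 6.27 CPM and 9.51, 6.04 and 15.7 CPM, so that its R788 + anti-PDL1 tumors were slightly above the vehicle tumors, and 13.9% of its exon length is shared with another transcript. Group means of Xaf1, a gene linked to apoptosis, were 5.68 ± 0.925, 3.58 ± 0.66 and 7.10 ± 4.13 CPM (SD, n = 3). Those of Ifi44 were 5.60 ± 3.41, 3.56 ± 0.906 and 4.57 ± 2.01 CPM, and those of Phf11d were 8.04 ± 2.53, 6.37 ± 0.975 and 10.7 ± 7.65 CPM. The irradiated group overlapped the vehicle group for these 3 genes.

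The full combination was compared with vehicle to ask what it changed in these tumors. Most members had higher estimates in the irradiated group, but no member passed the test. Of 33 members, 25 had a log2 fold change above 0, against 52.9% of all genes tested, and the median was 0.30, against 0.05 over all genes. These values moved with the setting: 18 members were higher, with a median of 0.14, in limma-voom with sample weights, 20, with 0.19, under the replicate block, and 19, with 0.19, without vehicle replicate 1. In edgeR's quasi-likelihood test with Benjamini-Hochberg adjustment over the 15931 genes, 0 of 33 members were called at an adjusted p under 0.05, and 7 genes were called in all (0.0439%). At an unadjusted p under 0.05, 4 members were higher, Oas1a, Oas1g, Isg20 and Rtp4, and 1 was lower, Herc6 (background 7.71% and 5.51%). The groups did not overlap for 2 higher members, Oas1a and Isg20, and 1 lower member, Herc6, against 9.27% and 11.2% of all genes (20.5% in either direction). DESeq2 called 2 members, Oas1a and Isg20, both higher, and it called 555 genes in all. Limma-voom with sample weights called 4 of 33 members, Herc6 as lower and Oas1a, Oas1g and Isg20 as higher. It called 1993 of the 15931 genes in all.

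Among the single genes of this comparison, Oas1a had a log2 fold change of 1.88 ± 0.40 (SE), with an adjusted p of 0.144 in edgeR, which ranged from 0.000757 to 0.577 over 12 alternatives. Isg20 differed by 1.57 ± 0.40 (edgeR adjusted p = 0.217, range 0.00955 to 0.678). Oas1g had the highest estimate of the list, 2.51 ± 1.05 (edgeR adjusted p = 0.357), with 10, 8 and 3 counts in its vehicle tumors. Herc6 had the lowest, -0.54 ± 0.21 (edgeR adjusted p = 0.337). For the genes led by 1 tumor, the estimates were 1.93 ± 1.46 for Oas2 and 1.12 ± 1.20 for Mx1, with errors near the size of the difference. The values for Isg15, Ifit1, Stat2, Irf9, Mx2 and Eif2ak2 were -0.18 ± 0.53, 0.09 ± 0.74, 0.09 ± 0.52, 0.22 ± 0.27, -0.27 ± 0.58 and -0.35 ± 0.38, each within 1 SE of 0. Without irradiated replicate 3 the median over the members fell to -0.57, with -0.01 over all genes, and only 8 of 33 were higher. Under that setting Oas1a stayed at 1.43 and Isg20 at 1.64, whereas Oas2 and Mx1 turned to -1.45 and -1.01. Without irradiated replicate 1, the library with the low TMM factor, the median was 0.51 and 27 members were higher. Isg20 was then at 1.24 and Oas1a at 1.93.

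**Figure D3:**
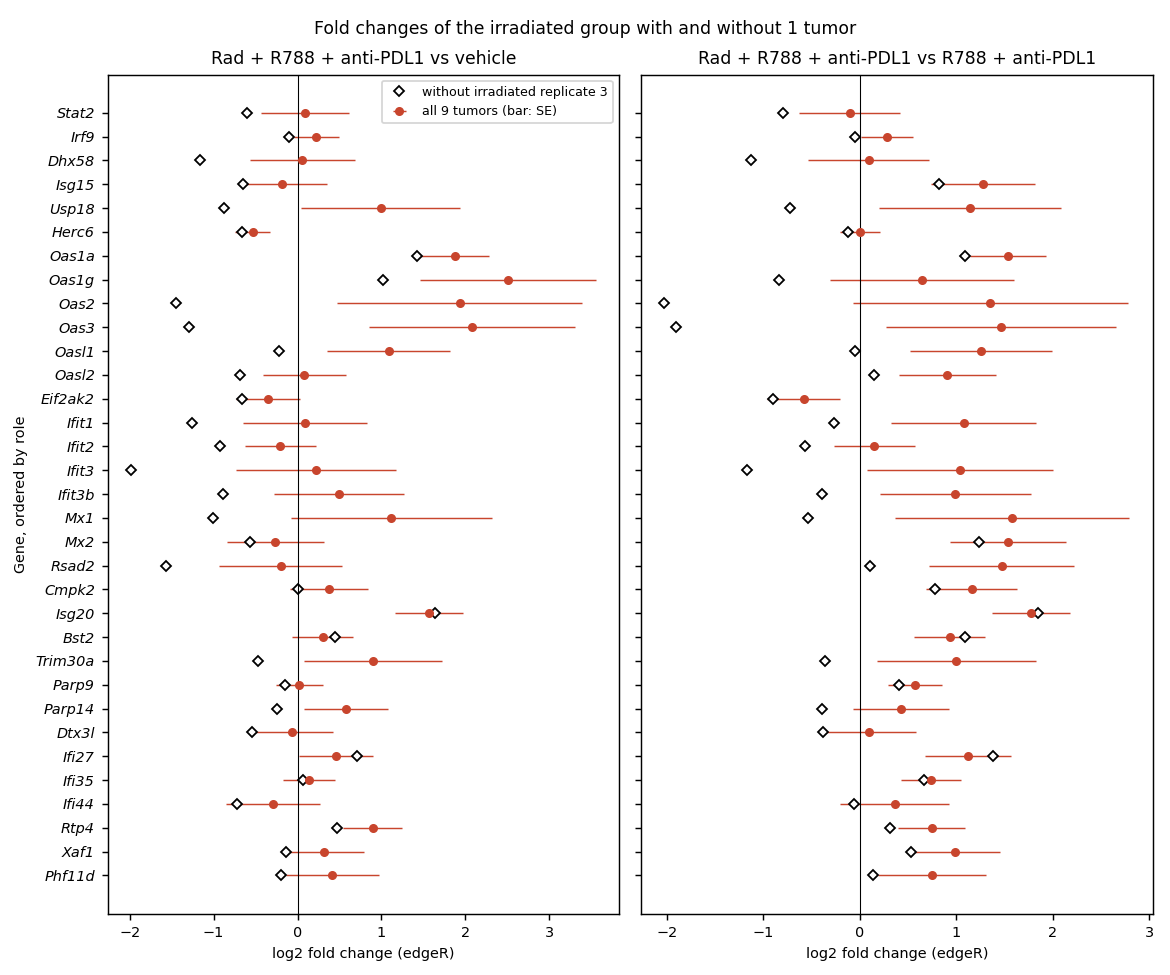
Log2 fold change (edgeR) of each member in irradiated tumors against vehicle tumors (left) and against R788 + anti-PDL1 tumors (right), with all 9 tumors (filled points, bars are SE) and without irradiated replicate 3 (open diamonds). Without that tumor the median moves from 0.30 to -0.57 on the left and from 0.99 to -0.06 on the right, while Oas1a and Isg20 stay above 0 in both.

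The same agents without radiation were then set against vehicle. Here most members had lower estimates, and again no member passed the test. A log2 fold change under 0 was found for 25 of 33 members, where 48.4% of all genes were above 0, and the median was -0.35, against -0.02 over all genes. No member was called (0 of 33; 108 genes, 0.678%, in all, and 0.289% as lower) by edgeR, and DESeq2 called 0 as well. At an unadjusted p under 0.05, 0 members were higher and 3 were lower, Mx2, Isg15 and Herc6 (background 5.96% and 5.69%). The groups did not overlap for 9 lower members, Mx2, Ifit2, Isg15, Ifi35, Ifi27, Bst2, Xaf1, Herc6 and Parp9, and for 2 higher ones, Oas1a and Rtp4, against 16.5% and 13.6% of all genes (30.1% in either direction). Limma-voom with sample weights called 9 of 33 members, all lower, Bst2, Cmpk2, Herc6, Ifi27, Isg15, Mx2, Oasl2, Parp9 and Rsad2. Limma-voom called 4835 of the 15931 genes in either direction, so members were not called more often than all genes. Its share of all genes called as lower was not computed. Fitted on the 6 libraries of this comparison alone, edgeR called Bst2.

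Mx2 had the lowest value of the list against vehicle, -1.81 ± 0.60 (SE; edgeR adjusted p = 0.259, range 0.0034 to 0.626 over 12 alternatives). Isg15 was at -1.46 ± 0.54 (edgeR adjusted p = 0.324, range 0.0217 to 0.703) and Herc6 at -0.54 ± 0.21 (edgeR adjusted p = 0.342, range 0.0013 to 0.815). These 3 estimates kept their sign in all 12 alternatives. Oas1g had the highest estimate, 1.86 ± 1.04, and Oas1a was at 0.34 ± 0.39. The values for Oas2, Mx1, Ifit1, Stat2, Irf9, Isg20 and Eif2ak2 were 0.58 ± 1.44, -0.46 ± 1.20, -0.99 ± 0.75, 0.19 ± 0.52, -0.06 ± 0.27, -0.21 ± 0.40 and 0.24 ± 0.38. None of these 9 genes passed the test.

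Irradiated tumors were compared with R788 + anti-PDL1 tumors to show what radiation added to the other agents. Both earlier comparisons share a group with this one, so its values are not independent of theirs. Nearly all members had higher estimates with radiation, but none passed the test. A log2 fold change above 0 was found for 31 of 33 members, all but Stat2 and Eif2ak2, against 52.5% of all genes, and the median was 0.99, against 0.04 over all genes. EdgeR called 0 of 33 members (1 gene, 0.00628%, in all), and DESeq2 called Oas1a and Isg20 (646 genes in all). Limma-voom with sample weights called 7 of 33, Cmpk2, Dtx3l, Isg20, Mx2, Oas1a, Parp9 and Phf11d, all higher. Limma-voom called 3080 of the 15931 genes in either direction, so members were called about as often as all genes. Its share of all genes called as higher was not computed. At an unadjusted p under 0.05, 8 members were higher, Oas1a, Mx2, Isg15, Isg20, Ifi35, Ifi27, Bst2 and Cmpk2, and 0 were lower (background 11.7% and 6.65%). The groups did not overlap for 4 members, Oas1a, Isg20, Ifi27 and Cmpk2, all higher, against 14.2% of all genes.

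Isg20 had the highest value with radiation added, 1.77 ± 0.41 (SE; edgeR adjusted p = 0.17, range 0.00223 to 0.528 over 12 alternatives), and its irradiated mean was 6.46 ± 2.61 CPM against 1.88 ± 0.313 CPM (SD, n = 3). Oas1a was at 1.54 ± 0.40 (edgeR adjusted p = 0.194, range 0.0118 to 0.528), with means of 13.4 ± 6.91 and 4.60 ± 0.66 CPM. Mx2 and Isg15 were at 1.54 ± 0.60 and 1.28 ± 0.54, and both genes had lower levels in all R788 + anti-PDL1 tumors than in any vehicle tumor. The values for Oas2, Mx1, Ifit1, Oas1g, Stat2, Irf9 and Herc6 were 1.35 ± 1.42, 1.58 ± 1.21, 1.08 ± 0.75, 0.65 ± 0.96, -0.11 ± 0.52, 0.28 ± 0.27 and 0.00 ± 0.21. Eif2ak2 had the lowest, -0.58 ± 0.38 (edgeR adjusted p = 0.409). Without irradiated replicate 3 the median was -0.06 (-0.04 over all genes) and 14 of 33 members were higher, whereas without irradiated replicate 1 the median was 1.19 and 32 were higher. Without replicate 3, Isg20 was at 1.85, Oas1a at 1.09, Mx2 at 1.24 and Isg15 at 0.82, while Oas2 and Mx1 were at -2.03 and -0.54.

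Levels were compared between members per kilobase of exon length. In vehicle tumors Bst2 was the highest, at 67.3 ± 4.84 CPM per kb (SD, n = 3), followed by Ifi27 at 15.7 ± 2.43, Eif2ak2 at 9.58 ± 2.39 and Isg15 at 9.06 ± 3.42 CPM per kb. Oas3, Oas1g and Oas2 were the lowest, at 0.153 ± 0.144, 0.153 ± 0.0828 and 0.294 ± 0.305 CPM per kb. Of the 32 pairs of neighbours in this order, 29 had overlapping vehicle ranges, and the 3 that did not were Bst2 above Ifi27, Ifi27 above Eif2ak2, and Parp9 above Dtx3l. In irradiated tumors Oas1a was at 7.08 ± 3.67 CPM per kb, against 1.93 ± 0.128 in vehicle tumors. The Bst2 level in irradiated tumors was 82.8 ± 51.2 CPM per kb.

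**Figure D4:**
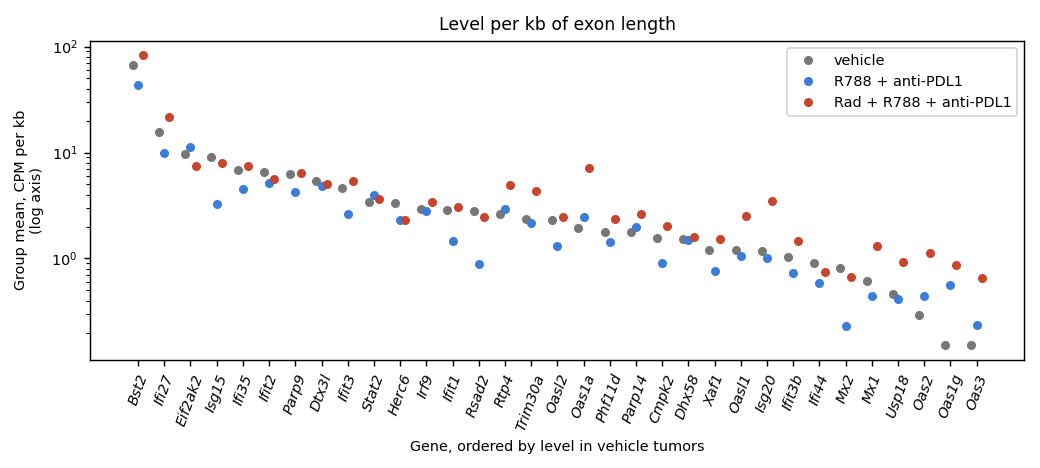
Group mean level of each member, in CPM per kb of exon length (log axis), ordered by the level in vehicle tumors. Bst2 and Ifi27 are the most abundant and Oas2, Oas1g and Oas3 the least in vehicle tumors.

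The genes upstream of the members gave few reads or did not pass the test. Of 20 type I and III interferon genes in the table, 12 had a count of 0 in all 9 libraries and none passed the filter. Their counts summed to 0 to 7 per library, including 0 in irradiated replicate 3, and no single gene had more than 4 counts, so any difference in the ligands was not detectable at this depth. All 14 receptor and signalling genes were tested, with 0 called in the 3 comparisons. At an unadjusted p under 0.05, R788 + anti-PDL1 against vehicle gave 0 higher and 3 lower (background 5.96% and 5.69%). Jak1, a kinase of the receptor, was at 113, 159 and 121 CPM in vehicle and 75.3, 162 and 166 CPM in irradiated tumors. Ifnar1 was at 58.0, 65.0 and 60.9 CPM in vehicle and 46.1, 69.4 and 81.0 CPM in irradiated tumors. Socs3, a feedback inhibitor of JAK signalling, was at 103, 244 and 235 CPM in vehicle, 143, 51.7 and 107 CPM in R788 + anti-PDL1 and 97.2, 110.2 and 97.6 CPM in irradiated tumors. Vehicle replicates 2 and 3 were above all the other tumors for this gene, and vehicle replicate 1 was within the range of the treated ones. Of the sensors and factors that induce interferon, 18 were tested and 0 were called. Their summed level was 310.0, 352 and 322 CPM in vehicle, 321, 305 and 325 CPM in R788 + anti-PDL1 and 299.5, 328 and 489.7 CPM in irradiated tumors, highest in the tumor that was highest for most members.

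A second list of 56 other interferon stimulated genes was used to set the 33 members beside the wider response. For the irradiated group against vehicle, 55 were tested and 0 called by edgeR. At an unadjusted p under 0.05, 11 were higher and 3 lower (background 7.71% and 5.51%), and the median was 0.56 (0.05 over all genes). Against R788 + anti-PDL1 the median was 0.57 (0.04 over all genes), with 10 higher and 0 lower (background 11.7% and 6.65%). R788 + anti-PDL1 against vehicle gave a median of -0.02 (-0.02 over all genes), with 1 higher and 4 lower (background 5.96% and 5.69%). The summed level of the 56 genes was 1935, 1734 and 2404 CPM in irradiated tumors, against 1702 to 2073 CPM in the 6 others. Irradiated replicate 3 was the highest tumor for 30 of the 56, and these medians were not computed without it. Of 26 genes on a list of interferon gamma and its targets, 22 were tested. Igtp, an immunity-related GTPase, was the 1 gene of these pathway lists that edgeR called. It was lower in R788 + anti-PDL1 tumors, at 8.86, 7.38 and 7.01 CPM, than in vehicle tumors, at 17.9, 27.4 and 28.2 CPM (edgeR adjusted p = 0.0383), and it was at 16.1, 13.8 and 20.4 CPM in irradiated tumors. This call was lost with the replicate block and without R788 + anti-PDL1 replicate 1 or 3 or vehicle replicate 2 or 3, where 0 genes of this comparison were called. All 22 had higher estimates in irradiated than in R788 + anti-PDL1 tumors, against 52.5% of all genes, with a median of 0.66 (0.04 over all genes). Of the 22, 3 were at an unadjusted p under 0.05 (background 11.7% as higher) and 0 were called. The summed level of the 26 genes was 114, 136 and 298 CPM in irradiated tumors and 115 to 167 CPM in the 6 others. Irradiated replicate 3 was the highest tumor for 18 of the 26, and this median was not computed without it.

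Macrophage and T cell markers were highest in the same tumor as most members. The summed level of the 33 members was 351, 482 and 459 CPM in vehicle, 319.8, 382 and 335 CPM in R788 + anti-PDL1 and 397, 356 and 721 CPM in irradiated tumors. The 12 macrophage markers summed to 1442 CPM in irradiated replicate 3, against 232 to 515 CPM in the other 8 tumors, and 10 of the 12 were highest in it. For the 14 T cell markers the sum was 69.2 CPM, against 10.7 to 39.4 CPM, and 11 of the 14 were highest there. The sums for 3 other cell types were highest there in large part through a single gene. Neutrophil markers summed to 17.9 CPM, against 3.40 to 13.1 CPM, of which Csf3r gave 13.7 CPM and was the 1 gene of 9 highest in that tumor. S100a8 and S100a9 were highest in vehicle tumors, and Ly6g and Ngp were at 0 in all 9 libraries. B and plasma cell markers summed to 19.6 CPM against 5.34 to 14.2 CPM, with 2 of 8 highest there and 16.3 CPM from Ighm. Dendritic cell markers summed to 41.0 CPM against 19.0 to 30.6 CPM, with 4 of 8 highest there and 20.4 CPM from Itgax. Cytotoxic lymphocyte markers at 29.0 CPM (6.60 to 30.2), neuroblast markers at 627 CPM (506 to 982), fibroblast markers at 4390 CPM (2551 to 5469) and endothelial markers at 63.1 CPM (35.6 to 121) were within the range of the other 8 tumors. So was the sum for plasmacytoid dendritic cells, 256 CPM (156 to 324), but 219 CPM of it came from Tcf4, Siglech was at 0.329 CPM or less in every tumor, and Irf8 was highest in irradiated replicate 3, at 24.9 CPM against 4.49 to 11.7 CPM. These single genes were chosen after their values were seen. The part of these cells in the levels of the members was not tested. The T cell sum was also above the vehicle range in R788 + anti-PDL1 tumors, at 39.4, 36.8 and 29.9 CPM, against 17.1, 10.7 and 10.8 CPM. That sum rested on Cd4, at 22.9 and 12.2 CPM in replicates 1 and 3, and on Thy1, which fibroblasts share, at 19.3 CPM in replicate 2, whereas Cd3e was at 0.176, 0.191 and 0.0410 CPM, against 0.166, 0.135 and 0.274 CPM in vehicle tumors.

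**Figure D5:**
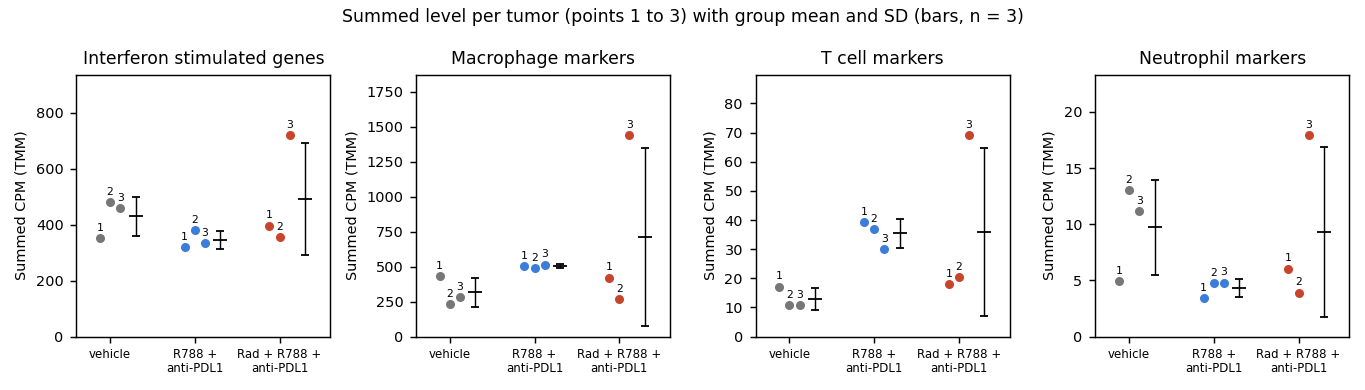
Summed CPM per tumor of the 33 members and of macrophage, T cell and neutrophil markers, numbered by replicate, with the mean and SD of each group (n = 3; linear axes from 0). Irradiated replicate 3 is the highest tumor in all 4 panels, for neutrophil markers through Csf3r, the 1 of 9 genes highest there, and the sums of the R788 + anti-PDL1 tumors are above those of the vehicle tumors for macrophage and T cell markers but not for the members.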

How the data were processed

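RNA from 9 tumors was sequenced from polyA-enriched libraries. The authors aligned reads to mm10 with STAR (2.6.1d in the submitters' processing notes) and quantified them with Salmon (1.4.0), and deposited the estimated counts by gene symbol, which are whole numbers without normalization. Labels and methods differ on the sequencer, and strandedness is not given in the sources used here. Counts were fitted with edgeR 4.0.16 (R 4.3.3; TMM, filterByExpr at a minimum count of 10, robust quasi-likelihood F test, 1 fit of all 9 libraries, two-sided, Benjamini-Hochberg over 15931 genes). DESeq2 1.42.0 and limma 3.58.1 were alternatives. The edgeR test recovered known changes in simulated counts that held no outlying tumor, so that check does not show its power in these data. With 3 against 3 tumors an exact permutation test cannot go below 0.1. In the main fit, p-values set a group difference against the spread between tumors, estimated over all 3 groups and with information shared across genes. The labels number these tumors as replicates.

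The members and gene lists were chosen with earlier results of these data known. Fold changes are printed for Oas1a, Oas2, Mx1, Isg15, Ifit1, Stat2 and Irf9, any called member, and the highest and lowest member of each comparison. Of the pathway lists, at most 3 genes per list are named, by mean level. Single cell type markers were named outside this rule, and those set beside the members were chosen after their values were seen. Identifiers, lengths and overlaps came from GENCODE M21 (GRCm38), the 31-base words from its transcripts (a check added after the data were seen), and promoters from RefSeq. Protein sequences were not used here.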

Additional observations from a re-analysis of the deposited data

How the results depend on the processing

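The number of genes called depended on the method, and the cause was not tested. For irradiated tumors against vehicle, 7 genes became 555 with DESeq2, 1993 with limma-voom and sample weights, 70 without the filter on low counts, 1 with only the 6 libraries compared, and 1 to 57 when 1 tumor was left out. For R788 + anti-PDL1 against vehicle, 108 became 726, 4835, 199 and 594 in the same order, and 0 to 75. Against R788 + anti-PDL1, 1 became 646, 3080, 24 and 0, and 0 to 21. Members called moved from 0 to 2, 0 and 2 with DESeq2, to 4, 9 and 7 with limma-voom, and to 1 with only the 6 libraries for R788 + anti-PDL1 against vehicle. All other settings called 0 members.

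Whether replicate numbers mark paired tumors was not settled. Deviations of same-numbered tumors from their group means correlated at -0.05 to 0.23 over genes, and not every tumor correlated best with its own number. Between irradiated and vehicle tumors the values were 0.23, 0.19 and 0.05 for the same number, against -0.23 to 0.12 for different numbers. With 3 tumors per group, such correlations cannot decide the question. With the replicate block, 3, 0 and 0 genes and 0 members were called for irradiated against vehicle, R788 + anti-PDL1 against vehicle, and irradiated against R788 + anti-PDL1.

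With 1 tumor left out, the median of the members ranged from -0.57 to 0.51 against vehicle and -0.063 to 1.23 against R788 + anti-PDL1, for irradiated tumors, and both low ends were without irradiated replicate 3. Signs of small differences turned. Irradiated against vehicle, the replicate block gave Ifit1 -0.066 and Stat2 -0.051, and limma-voom gave Ifit1 -0.41 and Mx2 0.036. Against R788 + anti-PDL1, Herc6 was at -0.025 without the filter and -0.0028 with the block, and Stat2 at 0.20 with limma-voom. Leaving out 1 tumor gave these ranges against vehicle: Eif2ak2 -0.67 to 0.037, Ifit1 -1.25 to 0.54, Irf9 -0.11 to 0.38, Isg15 -0.64 to 0.21, Mx1 -1.01 to 1.74, Mx2 -0.57 to 0.18, Oas2 -1.45 to 3.19 and Stat2 -0.60 to 0.54. Against R788 + anti-PDL1 they were Herc6 -0.12 to 0.10, Ifit1 -0.26 to 1.49, Irf9 -0.047 to 0.44, Mx1 -0.54 to 2.17, Oas1g -0.84 to 1.45, Oas2 -2.03 to 1.95 and Stat2 -0.80 to 0.32. For R788 + anti-PDL1 against vehicle, Irf9 ranged from -0.14 to 0.023 and Stat2 from -0.014 to 0.60. Genes with few counts, such as Oas1g with 3 to 10 in vehicle tumors, are limited by depth.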
